A study of Caenorhabditis elegans with 6 samples.

Results

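Transcripts of 10 genes of the presynaptic terminal were measured in whole larvae of the nematode Caenorhabditis elegans at the first larval stage (L1). The genes, taken from a list of active zone and synaptic vesicle genes, were cla-1, unc-10, syd-2, elks-1, sad-1, unc-13, unc-18, snb-1, unc-64 and rab-3. They are 10 of the 20190 genes in the count table, and all 10 were among the 15024 genes with enough counts to be tested. The list was chosen with earlier results of these data known. At a chemical synapse, vesicles filled with transmitter are held at the active zone by large scaffold proteins, are made ready for release by priming factors, and fuse with the plasma membrane when SNARE proteins on the 2 membranes zip together. Rab GTPases mark the vesicles and help to bring them to the release site. In C. elegans many of these genes carry the name unc because their loss leaves the animal uncoordinated.

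Messenger RNA was sequenced in 3 strains with 2 libraries each. HW3826, which the design text also calls VT1367, carries maIs105, an array with col-19::gfp, a reporter for a cuticle collagen gene. GR1395, spelled GR1935 in the growth text, carries mgIs49, an array with mlt-10p::gfp::pest, a reporter for a moulting gene, and ttx-3::gfp, a reporter used to mark the AIY interneurons. N2 is the wild-type laboratory strain without an array. In all 3 strains starved L1 larvae had been synchronised overnight in M9 buffer and grown for 4 hours at 25 °C before harvest. The question put to these libraries was how larvae with either array differ from wild type. A single pair of N2 libraries served for both array strains, and nothing in the labels says that the libraries of a strain came from separate cultures. Each p-value below therefore reflects no more than library-to-library spread, which may be technical.

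Library totals lay between 42593688 and 54957641 counts, and levels are given below as counts scaled to the library total (CPM). A floor of 3 counts stood at 0.0546 to 0.0704 CPM, for counting error only. Differences are log2 fold changes with their standard error (SE), from an edgeR quasi-likelihood fit to all 6 libraries, and a gene is said to have risen or fallen where its p, adjusted over all genes tested, was below 0.05. One library stood apart. In N2 replicate 2 the long genes were low: in the longest of 10 length classes, which held 1503 genes of at least 2985 bases, the median log2 deviation of a gene from its own mean over the 6 libraries lay between 0.0287 and 0.0632 in the HW3826 and GR1395 libraries, against -0.0186 in N2 replicate 1 and -0.163 in N2 replicate 2. Of the 10 presynaptic genes, 5 fell into that class: cla-1, unc-10, syd-2, sad-1 and unc-13. Short genes were high in N2 replicate 2, with a median deviation of 0.129 in the shortest class and 0.0757 in that of snb-1. Results are therefore given also from a fit that left N2 replicate 2 out, and from a fit with each library's length trend removed. A fit without 1 library leaves 1 library in that strain, so its p-values rest on the spread within the other strains alone.

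**Figure D1:**
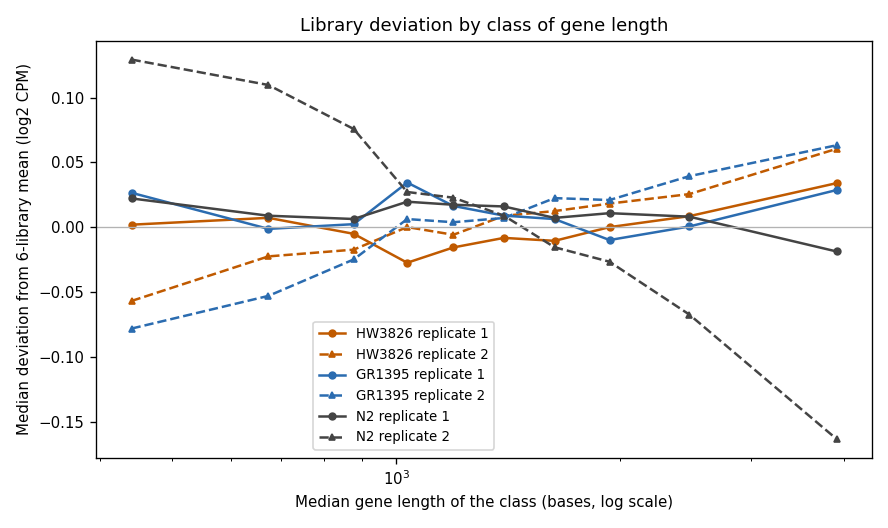
Median deviation of genes from their own mean over the 6 libraries (log2), for 10 classes of gene length (bases, log scale), 1 line per library. In the longest class the HW3826 and GR1395 lines are above 0, N2 replicate 1 is at -0.0186 and N2 replicate 2 is at -0.163.

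Per deposited gene length, snb-1 was the most abundant of the 10 and cla-1 the least. Mean CPM per kilobase over the 6 libraries was 245 for snb-1, 84.5 for unc-64, 56.8 for rab-3 and 49.3 for unc-18. It was 26.7 for elks-1, 25.4 for unc-13, 14.9 for sad-1, 13.6 for unc-10, 13.4 for syd-2 and 4.73 for cla-1. In this order of levels the ranges over libraries overlapped between rab-3 and unc-18, between elks-1 and unc-13, between sad-1 and unc-10 and between unc-10 and syd-2, and these neighbours cannot be ranked. The place of unc-64 depends on the length used: its deposited length is 1265 bases, while its annotated exons cover 2567 bases, over which its mean was 41.6 CPM per kilobase. On that scale its range over libraries overlapped those of unc-18, with a mean of 49.4, and rab-3, with a mean of 48.02. The place of cla-1 likewise holds only for its deposited length of 27429 bases. Its annotated transcripts run from 2511 to 27002 bases, and counts summed per gene do not tell which of them were present. In CPM without regard to length, sad-1 stood lowest, at percentile 77.1 of the tested genes, and snb-1 highest, at percentile 94.3. The animals were sequenced whole, so fewer cells of a type and less RNA per cell cannot be told apart.

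Among the 10 genes, 2 were higher in HW3826 than in N2 and none was lower, with 6% of all genes tested called in this comparison, 3.54% higher and 2.46% lower. In GR1395, 4 were higher than in N2 and none was lower, with 16.1% of all genes called, 7.93% higher and 8.15% lower. Their median log2 fold change was 0.13 in HW3826 and 0.18 in GR1395, against -0.01 and 0.01 over all genes tested. With the length trend removed this median was 0.05 in HW3826 and 0.15 in GR1395, and without N2 replicate 2 it was 0.11 and 0.18. Every one of these calls was in the longest length class. After removal of the length trend no gene of the 10 was called against N2 in either strain, with 5.58% of all genes called in HW3826 and 16.2% in GR1395. Without N2 replicate 2 cla-1 alone was called, in both strains, with 3.99% and 5.99% of all genes called.

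**Figure D2:**
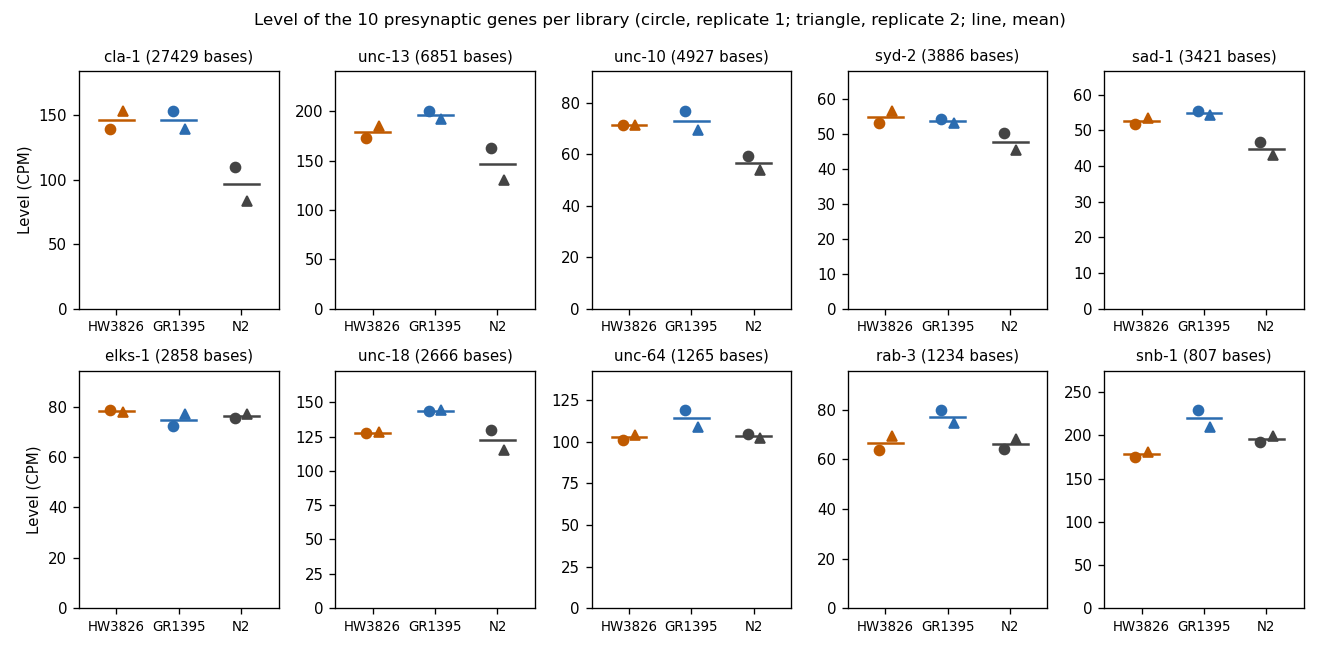
Level of each of the 10 genes (CPM), 1 point per library, with HW3826 and GR1395 to the left of N2 and a bar at the mean. The cla-1 points of HW3826 and GR1395 lie between 139 and 153 CPM, above both N2 points at 83.3 and 110 CPM, while all 6 elks-1 points lie between 72.2 and 78.5 CPM.

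On the deposited counts the scaffold gene cla-1 showed the greatest difference of the 10 against N2. It encodes Clarinet, a very large active zone protein that helps to cluster synaptic vesicles. Its gene spans IV:7588931-7628238 on the plus strand (WBcel235), with 6 annotated transcripts of 2511 to 27002 bases and proteins of 836 to 8922 residues, and the deposited gene length was 27429 bases. Levels of cla-1 were 139.5 and 153 CPM in HW3826, 153 and 139 CPM in GR1395, and 110 and 83.3 CPM in N2. The 4 array-strain libraries were all above the 2 N2 libraries, and the N2 libraries differed more from each other than the array-strain libraries did. The mean was 146 ± 9.79 CPM in HW3826 and 146 ± 9.72 CPM in GR1395, against 96.7 ± 19 CPM in N2 (SD, n = 2 each). By edgeR cla-1 rose by 0.60 on the log2 scale in HW3826 (1.51-fold, SE 0.11, adjusted p = 0.00668). In GR1395 it rose by 0.55 (1.46-fold, SE 0.11, adjusted p = 0.0066).

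How much of the cla-1 value remained depended on how gene length was handled. Without N2 replicate 2 it was 0.43 in HW3826 (adjusted p = 0.00909) and was 0.38 in GR1395 (adjusted p = 0.0164). Without N2 replicate 1 it was 0.79 in HW3826 and 0.74 in GR1395. Each of these fits held 1 N2 library, so neither measures the spread between N2 libraries. The difference between the sets of values shows how far a single N2 library set the size. The GR1395 call was lost without GR1395 replicate 1 (log2 fold change 0.50, adjusted p = 0.054), whereas the HW3826 call held in each of the 6 fits that left out 1 library, with a highest adjusted p of 0.0414. When the median of its length class was taken out of each library, cla-1 stayed called at 0.47 in HW3826 (adjusted p = 0.00402) and at 0.42 in GR1395 (adjusted p = 0.00462). When a smooth trend with length was taken out instead, cla-1 was at 0.16 in HW3826 (SE 0.06, adjusted p = 0.211) and at 0.19 in GR1395 (SE 0.06, adjusted p = 0.0612). In HW3826 it then lay below unc-10.

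The longest class is wide, and cla-1 lies at its far end. Of the tested genes 49 had at least 10000 bases, with cla-1 the only one of the 10 presynaptic genes among them, and 3 genes, cla-1 included, were as long as cla-1 or longer. The median log2 fold change of these 49 genes was 0.36 in HW3826 and 0.27 in GR1395. Of the 49, 26 were called higher in HW3826 and 21 in GR1395, and none was called lower in either; 2 of them lay above cla-1 in HW3826 and 3 in GR1395. Their median deviation was -0.35 in N2 replicate 2 and -0.09 in N2 replicate 1, and that of cla-1 was -0.57 in N2 replicate 2 and -0.21 in N2 replicate 1. The smooth trend taken out at the length of cla-1 was -0.44 in N2 replicate 2 and -0.10 in N2 replicate 1. With so few genes of that length, it was drawn mainly from shorter genes. The part of the length trend in the cla-1 result beyond these values was not tested.

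**Figure D3:**
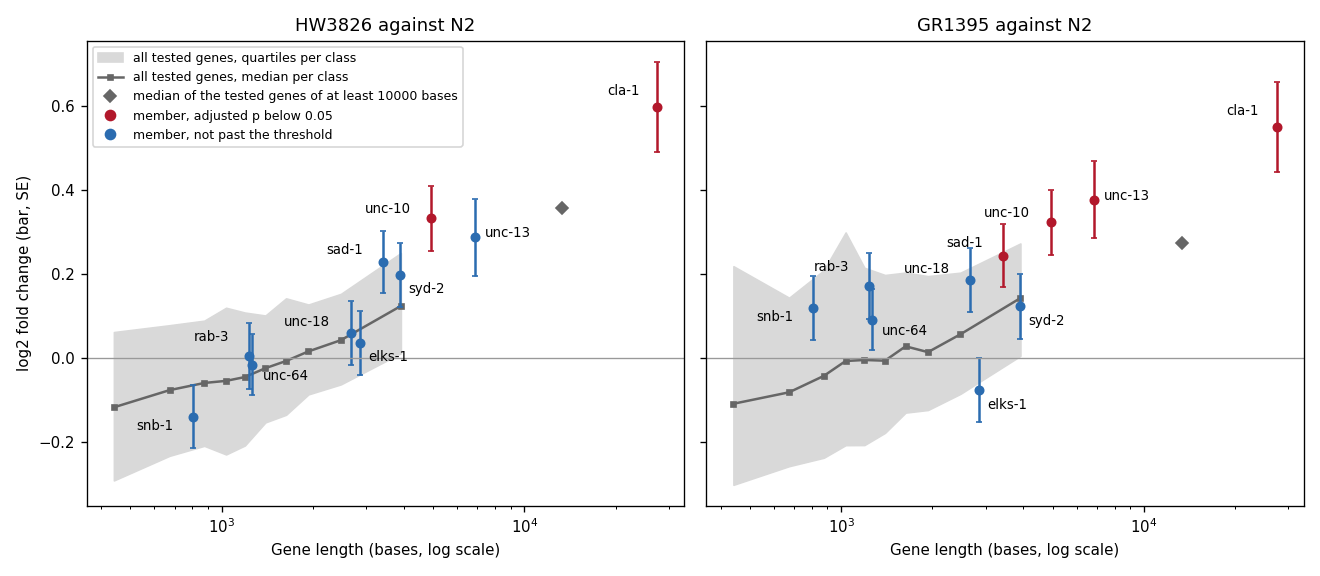
Log2 fold change of the 10 genes against gene length (bases, log scale), HW3826 against N2 on the left and GR1395 against N2 on the right. Bars are SE, red points are called, the grey line and band are the median and the quartiles of all tested genes in each length class, and the diamond is the median of the 49 tested genes of at least 10000 bases, at 0.36 and 0.27.

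Among the remaining active zone scaffold genes, unc-10 rose in both array strains and syd-2 and elks-1 did not pass the test. unc-10 encodes RIM, which links vesicles, calcium channels and the priming machinery, and it lies at X:7272317-7280322 on the minus strand with a deposited length of 4927 bases. It had 71.2 and 71.3 CPM in HW3826, 76.8 and 69.2 CPM in GR1395, and 59.3 and 53.8 CPM in N2, so that both array strains lay above N2 without overlap. Its log2 fold change in edgeR was 0.33 in HW3826 (SE 0.08, adjusted p = 0.0225) and was 0.32 in GR1395 (SE 0.08, adjusted p = 0.0141). The HW3826 call was lost without N2 replicate 2 (0.28, adjusted p = 0.0756), without HW3826 replicate 1 (0.32, adjusted p = 0.139) and without HW3826 replicate 2 (0.33, adjusted p = 0.138). The GR1395 call was lost without N2 replicate 2 (0.27, adjusted p = 0.069) and without GR1395 replicate 1 (0.26, adjusted p = 0.145). With the length trend removed unc-10 was at 0.17 in both strains, with an adjusted p of 0.2 in HW3826 and 0.123 in GR1395.

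syd-2 encodes liprin-alpha, an organiser that recruits other active zone proteins, and it lies at X:10549106-10555239 on the minus strand with a length of 3886 bases. Its levels were 53.3 and 56.7 CPM in HW3826, 54.4 and 53.2 CPM in GR1395, and 50.3 and 45.4 CPM in N2. The array-strain libraries were again all above the N2 libraries, but the log2 fold changes of 0.20 in HW3826 (edgeR, adjusted p = 0.164) and of 0.12 in GR1395 (adjusted p = 0.29) did not pass the threshold. elks-1 encodes ELKS, a coiled-coil scaffold protein of the active zone, and it lies at IV:3342515-3350027 on the minus strand with a length of 2858 bases. It had 78.5 and 77.9 CPM in HW3826, 72.2 and 77.0 CPM in GR1395, and 75.2 and 77.1 CPM in N2. GR1395 overlapped N2 and HW3826 lay just above it, and the log2 fold change of elks-1 was 0.04 in HW3826 (edgeR, adjusted p = 0.854) and was -0.08 in GR1395 (adjusted p = 0.539), each with an SE of 0.08. Of the 4 scaffold genes elks-1, the shortest, had the smallest difference in both strains on the deposited counts. After removal of the length trend elks-1 was at -0.04 in HW3826 and -0.16 in GR1395 (adjusted p = 0.154), and syd-2 at 0.08 and 0.00 was then the smallest in GR1395.

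sad-1 encodes a kinase that acts in neuronal polarity and in the placing of presynaptic components, and it lies at X:13487552-13500668 on the minus strand with a length of 3421 bases. Its levels were 51.9 and 53.6 CPM in HW3826, 55.5 and 54.3 CPM in GR1395, and 46.7 and 43.2 CPM in N2, with no overlap of either array strain with N2. The log2 fold change was 0.24 in GR1395 (SE 0.07, edgeR adjusted p = 0.0404), which passed, and 0.23 in HW3826 (SE 0.07, adjusted p = 0.0947), which did not. Without GR1395 replicate 1 the GR1395 value was 0.25 (adjusted p = 0.173), without N2 replicate 2 it was 0.20 (adjusted p = 0.158), and of the 6 fits that left out 1 library, only that without N2 replicate 1 kept the call (0.28, adjusted p = 0.0229). With the length trend removed sad-1 was at 0.14 in GR1395 (adjusted p = 0.176) and 0.13 in HW3826 (adjusted p = 0.318). A difference between the strains themselves was not found, since sad-1 in HW3826 stood at -0.01 against GR1395 (SE 0.07, edgeR adjusted p = 0.914).

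Of the priming factors, unc-13 was higher in GR1395 and unc-18 did not pass in either strain. unc-13 encodes Munc13, the protein that makes docked vesicles ready for fusion. It lies at I:7422785-7454116 on the plus strand with 11 annotated transcripts, a deposited length of 6851 bases and a longest protein of 2155 residues. Counts were summed per gene, so its long and short isoforms are not told apart here. unc-13 had 173 and 185 CPM in HW3826, 201 and 192 CPM in GR1395, and 163 and 130.0 CPM in N2. Both array strains were above N2 without overlap, and N2 replicate 2 was the lowest of the 6 libraries. The log2 fold change was 0.38 in GR1395 (SE 0.09, edgeR adjusted p = 0.0154) and 0.29 in HW3826 (SE 0.09, adjusted p = 0.0895).

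The unc-13 call in GR1395 was lost without N2 replicate 2 (0.24, adjusted p = 0.0827), without GR1395 replicate 1 (0.36, adjusted p = 0.1) and without GR1395 replicate 2 (0.39, adjusted p = 0.0531). With the length trend removed the value was 0.18 in GR1395 (adjusted p = 0.0669) and 0.08 in HW3826 (adjusted p = 0.579), and with the class median removed it was 0.25 in GR1395 (adjusted p = 0.025) by edgeR. Without N2 replicate 1, on the other hand, unc-13 in HW3826 was also called (0.44, adjusted p = 0.00214). unc-18 encodes Munc18, which binds syntaxin and is needed for SNARE assembly, and it lies at X:7682896-7686037 on the plus strand with a length of 2666 bases. It had 127 and 129 CPM in HW3826, 144 and 144 CPM in GR1395, and 130.0 and 115.1 CPM in N2. GR1395 was above N2 in both libraries while HW3826 lay within the N2 range, and the log2 fold change was 0.19 in GR1395 (SE 0.08, edgeR adjusted p = 0.11) and 0.06 in HW3826 (SE 0.08, adjusted p = 0.734). In GR1395 unc-18 was called only without N2 replicate 1 (0.26, adjusted p = 0.0249).

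The SNARE genes and rab-3, which are the shortest of the 10, did not pass the test against N2 in either strain. snb-1 encodes synaptobrevin, the SNARE of the vesicle membrane, and lies at V:6655562-6656501 on the minus strand with 1 transcript of 807 bases and a protein of 109 residues. It had 175 and 181 CPM in HW3826, 229 and 210.2 CPM in GR1395, and 192 and 199 CPM in N2. Thus HW3826 lay below N2 and GR1395 above it, each without overlap, with log2 fold changes of -0.14 in HW3826 (SE 0.08, edgeR adjusted p = 0.343) and of 0.12 in GR1395 (SE 0.08, adjusted p = 0.298). unc-64 encodes syntaxin, the SNARE of the plasma membrane, at III:13277258-13283887 on the plus strand with a length of 1265 bases. Its levels were 101.3 and 104.3 CPM in HW3826, 119.1 and 109.2 CPM in GR1395, and 105 and 103 CPM in N2, and its log2 fold change was -0.01 in HW3826 (edgeR, adjusted p = 0.944) and was 0.09 in GR1395 (adjusted p = 0.418). rab-3, the gene of the vesicle GTPase used widely as a presynaptic marker, lies at II:5721767-5727853 on the minus strand with a length of 1234 bases. It had 64 and 69.5 CPM in HW3826, 79.9 and 74.6 CPM in GR1395, and 64.3 and 68.4 CPM in N2, with a log2 fold change of 0.01 in HW3826 (edgeR, adjusted p = 0.982) and of 0.17 in GR1395 (adjusted p = 0.149). For both unc-64 and rab-3 the HW3826 and N2 libraries overlapped and the GR1395 libraries were the highest. With the length trend removed snb-1 was at 0.17 in GR1395 (edgeR, adjusted p = 0.0707) and rab-3 at 0.17 (adjusted p = 0.116). unc-64 was then at 0.09 (adjusted p = 0.355). Of the 10 genes, those of the longest class then ran from -0.00039 for syd-2 to 0.19 for cla-1. In HW3826 the values were then -0.07 for snb-1, 0.01 for unc-64 and 0.03 for rab-3. Without N2 replicate 2 they were, in that order, 0.16, 0.09 and 0.23 in GR1395 and -0.09, -0.01 and 0.07 in HW3826.

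Set against each other, the array strains differed in 1 of the 10 genes. snb-1 was lower in HW3826 than in GR1395 by edgeR (log2 fold change -0.26, SE 0.08, adjusted p = 0.0349), with 14.5% of all genes called in this comparison and 7.17% called lower and 7.33% higher. The value held with the length trend removed (-0.24, adjusted p = 0.0143). It held without N2 replicate 2 (-0.26, adjusted p = 0.0112) but not without HW3826 replicate 1 (-0.24, adjusted p = 0.248), HW3826 replicate 2 (-0.27, adjusted p = 0.174), GR1395 replicate 1 (-0.21, adjusted p = 0.236) or GR1395 replicate 2 (-0.30, adjusted p = 0.0636). cla-1 stood at 0.05 (SE 0.11, adjusted p = 0.80) and unc-10 at 0.01 (adjusted p = 0.949) between the strains. The other 7 genes lay between -0.17 for rab-3 (adjusted p = 0.172) and 0.11 for elks-1 (adjusted p = 0.353).

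The non-overlap of libraries was common over all genes. Both HW3826 libraries lay above both N2 libraries in 6 of the 10 presynaptic genes, against 23.6% of all genes tested, and below them in 1, against 24.3%. Both GR1395 libraries lay above both N2 libraries in 9 of the 10, against 36% of all genes, and below them in none, against 23.6%. HW3826 lay above GR1395 in 1 of the 10, against 24.7% of all genes, and below it in 6, against 37.4%.

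**Figure D4:**
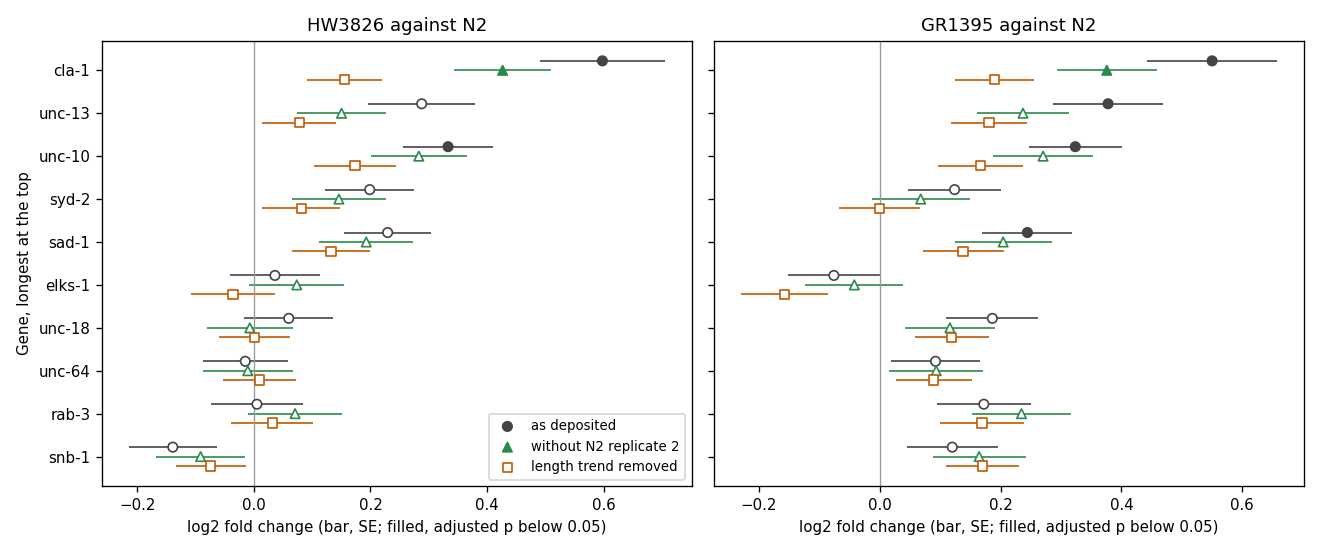
Log2 fold change of the 10 genes, longest at the top, in HW3826 against N2 and GR1395 against N2, under 3 settings: the deposited counts, N2 replicate 2 left out, and the length trend removed. Bars are SE and filled markers are called; cla-1 in HW3826 is at 0.60, 0.43 and 0.16 in these settings, and no gene is called with the trend removed.

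On the deposited counts the log2 fold change rose with gene length over the 10 genes, less closely in GR1395 than in HW3826. Spearman's rho between length and log2 fold change was 0.952 in HW3826 and 0.733 in GR1395, and 0.770 and 0.273 with the trend removed. Without N2 replicate 2 rho was 0.903 in HW3826 and 0.491 in GR1395, and without N2 replicate 1 it was 0.976 and 0.818. With the trend removed and N2 replicate 2 left out rho was 0.564 in HW3826 and -0.103 in GR1395. With the trend removed and N2 replicate 1 left out it was 0.855 and 0.333. These are descriptions over 10 genes that share their libraries, and both comparisons share the N2 libraries. Set against all tested genes of their own length class, 3 of the 10, namely cla-1, unc-10 and unc-13, lay above the upper quartile in HW3826, and the same 3 in GR1395, while 7 lay between the quartiles in each, and none lay below. By the definition of a quartile, close to that share of all genes in a class lies above the upper one. For cla-1 the class is a loose match, with a median of 3909 bases against 27429 bases. In the longest class the median log2 fold change of all genes was 0.12 in HW3826, with quartiles of 0.01 and 0.25, and 0.14 in GR1395, with quartiles of 0.01 and 0.27. In that class 13% of all genes were called higher in HW3826 and 20.4% in GR1395, while 0.798% and 2.66% were called lower.

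Between the N2 libraries themselves, the log2 ratio of replicate 2 over replicate 1 was -0.37 for cla-1 and -0.29 for unc-13, below the class median of -0.14. It was -0.11 for syd-2, -0.10 for unc-10 and -0.08 for sad-1, closer to 0 than that median. For the shorter genes it was 0.07 for elks-1, 0.09 for snb-1, 0.13 for rab-3 and 0.01 for unc-64, whereas unc-18 was at -0.14 in a class with a median of -0.07. Relative to their own mean over the 6 libraries, unc-10 was at -0.27 and sad-1 at -0.20 in N2 replicate 2, also below the class median of -0.163, and both were low in N2 replicate 1 as well, at -0.17 and -0.12 against a class median of -0.0186.

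Profiles over the 6 libraries were alike within the long genes and within the short ones. Among the 5 genes of the longest class, Pearson's r of log2 levels lay between 0.84 and 0.97 over the 10 pairs. Among snb-1, unc-64 and rab-3 it lay between 0.81 and 0.87, and across these sets between -0.42 and 0.47. elks-1 ran opposite to the short set, with r between -0.91 and -0.62, and near or below 0 with the long set, between -0.45 and -0.02. unc-18 was nearest to unc-13 (r = 0.88) and sad-1 (r = 0.77), and had r between 0.38 and 0.61 with the short set. With the length trend removed the range within the longest class widened to between -0.01 and 0.93, while that among snb-1, unc-64 and rab-3 was 0.81 to 0.85. The range across the sets then ran between -0.59 and 0.81, and overlapped the ranges within them. Each r is a description over 6 libraries that share depth, strain and the length trend.

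The genes outside the 10 whose profiles over the 6 libraries were most like the median profile of the 10 were H03A11.2 (r = 0.998), pab-2 (r = 0.998), skn-1 (r = 0.997), Y32B12B.4 (r = 0.995) and pqn-41 (r = 0.994), out of 8067 genes with a mean of at least 10 CPM. pab-2 encodes a poly(A)-binding protein and skn-1 a transcription factor of the stress response. All 5 of them were in the longest length class, at 3275 to 6444 bases.

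Wider lists of the presynaptic machinery held 57 further genes, all tested. In HW3826, 2 of the 57 rose, none fell and 55 did not pass, where 3.54% of all genes were called higher and 2.46% lower. Their median log2 fold change was 0.03 against -0.01 over all genes. In GR1395, 12 rose, 1 fell and 44 did not pass, where 7.93% of all genes were called higher and 8.15% lower, and the median was 0.15 against 0.01 over all genes. With the length trend removed the counts were 1 higher and 1 lower in HW3826, and 5 higher and 1 lower in GR1395, with 5.58% and 16.2% of all genes called. Without N2 replicate 2 they were 1 higher and 1 lower in HW3826, and 3 higher and none lower in GR1395, with 3.99% and 5.99% of all genes called. Without N2 replicate 1 they were 6 higher and 1 lower in HW3826, and 22 higher and 2 lower in GR1395, with 7.7% and 22.2% of all genes called. The 12 genes that rose in GR1395 had a median length of 3667 bases, against 2656 bases for the others.

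**Figure D5:**
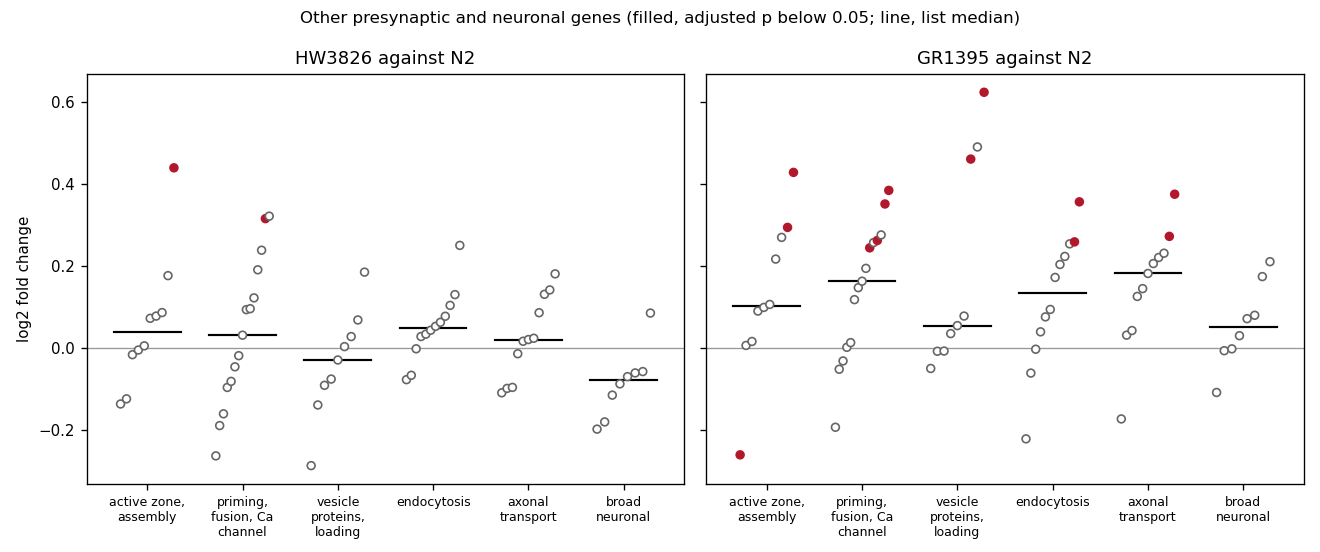
Log2 fold change of 57 further presynaptic genes in 5 lists and of 8 broad neuronal genes, HW3826 against N2 on the left and GR1395 against N2 on the right, 1 point per gene. Filled points are called and bars are list medians; rimb-1 is filled in both panels, and no broad neuronal gene is.

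Among the other active zone and assembly genes, 1 of 10 rose in HW3826, and 2 rose and 1 fell in GR1395. The gene that rose in both was rimb-1, which encodes the RIM-binding protein that ties RIM to calcium channels. It had 82.9 and 86.6 CPM in HW3826, 88.7 and 84.7 CPM in GR1395, and 65.9 and 59.1 CPM in N2, without overlap. By edgeR it rose by 0.44 in HW3826 (SE 0.08, adjusted p = 0.00368) and by 0.43 in GR1395 (SE 0.08, adjusted p = 0.00291). rimb-1 has 3960 bases and is thus in the longest class, but its call held with the length trend removed, at 0.32 in HW3826 (adjusted p = 0.00939) and at 0.30 in GR1395 (adjusted p = 0.00722), and in all 6 fits that left out 1 library, with a highest adjusted p of 0.0473 in HW3826 and 0.0363 in GR1395. nrx-1, the gene of the adhesion protein neurexin, rose in GR1395 (0.29, adjusted p = 0.0282), a call that ended on leaving out N2 replicate 2 or a GR1395 library (adjusted p at most 0.168). It was at 0.11 with the length trend removed (adjusted p = 0.262). cdk-5, the gene of a kinase that acts in synapse placement, fell by 0.26 in GR1395 (adjusted p = 0.0488), a call that was lost in each of the 6 fits without 1 library (adjusted p up to 0.206). With the length trend removed cdk-5 stayed called lower in GR1395. cdk-5 and ptp-3, a receptor phosphatase gene, were the most abundant of this list per length, and ptp-3 stood at 0.08 in HW3826 and 0.11 in GR1395, neither past the threshold.

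Among the other priming, fusion and calcium channel genes, 1 of 15 rose in HW3826 and 4 rose in GR1395. In HW3826 it was slo-1, the gene of a calcium-activated potassium channel (0.32, edgeR adjusted p = 0.0225). It was at 0.19 with the length trend removed (adjusted p = 0.117), and leaving out N2 replicate 2 or either of the HW3826 libraries ended the call, with adjusted p-values of at most 0.191. In GR1395 they were unc-2, the gene of the presynaptic calcium channel subunit (0.38, adjusted p = 0.0222), unc-31, the gene of the dense-core vesicle factor CAPS (0.35, adjusted p = 0.0165), tom-1, the gene of the release inhibitor tomosyn (0.26, adjusted p = 0.0367), and ccb-1, the gene of a calcium channel beta subunit (0.24, adjusted p = 0.0357). Leaving out N2 replicate 2 or either GR1395 library ended each of these 4 calls, and that of ccb-1 was lost in all 6 fits without 1 library (adjusted p up to 0.188). Only ccb-1, the shortest of the 4 at 1999 bases, was called with the length trend removed (0.21, adjusted p = 0.0483). The most abundant genes of this list per length, the SNAP-25 gene ric-4 and the complexin gene cpx-1, were at -0.16 and -0.26 in HW3826 and at -0.03 and -0.19 in GR1395, none past the threshold. Thus ric-4, the third neuronal SNARE gene beside snb-1 and unc-64, was also not called.

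Of the 9 other vesicle protein and transmitter loading genes, none rose in HW3826 and 2 rose in GR1395. svop-1, whose product is a relative of the vertebrate synaptic vesicle protein SVOP, had 19.8 and 21.1 CPM in HW3826, 35.6 and 33.6 CPM in GR1395, and 23.2 and 20.4 CPM in N2. Only the GR1395 libraries stood out, with a log2 fold change of 0.62 in GR1395 (SE 0.09, edgeR adjusted p = 0.000822) and -0.09 in HW3826 (adjusted p = 0.648). The GR1395 call held with the length trend removed (0.59, adjusted p = 0.00061) and in all 6 fits without 1 library (highest adjusted p 0.0121). unc-47, the gene of the vesicular GABA transporter, had 6.32 and 6.56 CPM in HW3826, 9.83 and 8.80 CPM in GR1395, and 6.41 and 6.69 CPM in N2. It rose in GR1395 (0.46, SE 0.12, adjusted p = 0.0238), and the call was lost without any 1 of the GR1395 or N2 libraries (adjusted p up to 0.174). With the length trend removed unc-47 stayed called higher in GR1395. sph-1, a synaptophysin-family gene, and unc-17, the gene of the vesicular acetylcholine transporter, were the most abundant of this list per length. sph-1 stood at -0.29 in HW3826 and -0.05 in GR1395, and unc-17 at 0.07 and 0.05, none past the threshold, although without N2 replicate 2 sph-1 was called lower in HW3826.

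In the endocytosis list none of 12 genes passed in HW3826, and dyn-1, the dynamin gene (0.26, edgeR adjusted p = 0.0311), and unc-41, the stonin gene (0.36, adjusted p = 0.0111), rose in GR1395. Both calls ended without N2 replicate 2 or without GR1395 replicate 1, and that of dyn-1 held only without N2 replicate 1. They ended also with the length trend removed, where dyn-1 was at 0.15 (adjusted p = 0.0907) and unc-41 at 0.19 (adjusted p = 0.0655). The clathrin heavy chain gene chc-1 and the adaptor gene dpy-23, the most abundant of the list per length, lay between 0.04 and 0.09 in the 2 strains, not past the threshold. In the axonal transport list none of 11 genes passed in HW3826, and unc-116, the kinesin heavy chain gene (0.27, adjusted p = 0.0282), and unc-14, the gene of a kinesin-associated protein (0.38, adjusted p = 0.00611), rose in GR1395. These were also the most abundant of their list per length. unc-14 had 182 and 182 CPM in HW3826, 236 and 222 CPM in GR1395, and 180.5 and 162 CPM in N2, and it stayed called with the length trend removed (0.30, adjusted p = 0.00624) and in 5 of 6 fits without 1 library, the exception being the fit without GR1395 replicate 1 (adjusted p = 0.061). unc-116 kept its call only without N2 replicate 1 (adjusted p up to 0.154 in the other 5 fits), and was at 0.18 (adjusted p = 0.0686) with the length trend removed.

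SNARE genes of other membranes were set beside snb-1 and unc-64. Of 11 such genes 8 had enough counts to be tested, and snb-5, snb-6 and snb-7 had not. None of the 8 passed in HW3826 against N2, with 6% of all genes called, and 16.1% of all genes were called in GR1395 against N2. In GR1395 the syntaxin-family gene syx-2 (0.32, adjusted p = 0.041) and snap-29 (0.30, edgeR adjusted p = 0.015) rose, and syx-4 fell (-0.98, adjusted p = 0.0259) at a level of 1.15 and 0.994 CPM in GR1395 against 2.02 and 2.07 CPM in N2. The snap-29 call was lost without GR1395 replicate 1 (adjusted p = 0.123), that of syx-4 on leaving out N2 replicate 2 or a GR1395 library (adjusted p at most 0.116), and that of syx-2 in 4 of the 6 fits (adjusted p at most 0.364). snap-29 and vamp-7 were the most abundant of these per length, and vamp-7 stood at -0.01 in HW3826 and 0.11 in GR1395, not past the threshold.

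Neuronal transcripts as a whole and those of other tissues were read beside these values. The summed level of the 10 presynaptic genes was 1036 and 1081 CPM in HW3826, 1184 and 1123 CPM in GR1395, and 996 and 918 CPM in N2. That of 8 broad neuronal genes outside the synapse lists was 2188 and 2091 CPM in HW3826, 2438 and 2407 CPM in GR1395, and 2356 and 2218 CPM in N2. In CPM, HW3826 was thus below N2 and GR1395 above it. These sums leave out the scaling factors of the edgeR fit. Those factors were 0.984 and 0.997 in HW3826, 1.034 and 1.008 in GR1395, and 1.001 and 0.977 in N2. On the deposited counts none of these 8 passed the test in either strain. Their median log2 fold change was -0.08 in HW3826 and 0.05 in GR1395. The neuropeptide-processing genes sbt-1 and egl-21, the most abundant per length, lay between -0.11 and 0.00. Once the length trend was taken out, ida-1 alone of the 8 was called lower in HW3826, and none was called in GR1395. The body wall muscle sum was 5435 and 5293 CPM in HW3826, 5824 and 5598 CPM in GR1395, and 4850 and 4620 CPM in N2. The pharyngeal muscle sum was 2095 and 2104 CPM in HW3826, 2438 and 2431 CPM in GR1395, and 2047 and 1825 CPM in N2. The intestine sum was 4513 and 4570 CPM in HW3826, 3439 and 3555 CPM in GR1395, and 4177 and 4142 CPM in N2. On the deposited counts muscle sums were thus higher than in N2 in both array strains, and the intestine sum was lower in GR1395.

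Single markers were called as well, with 6% of all genes called in HW3826 and 16.1% in GR1395 against N2. In GR1395 the body wall myosin genes myo-3 (0.44) and unc-54 (0.34) and the pharyngeal myosin genes myo-1 (0.36) and myo-2 (0.26) rose, and the troponin gene unc-27 (-0.27) and the intestinal actin gene act-5 (-0.39) fell. The intestinal transcription factor gene elt-2 rose in HW3826 (0.68) and in GR1395 (0.59). Without N2 replicate 2 the calls of myo-3, unc-54, myo-1, act-5 and elt-2 held and those of myo-2 and unc-27 did not. After removal of the length trend those of unc-54, myo-1 and myo-2 were lost, those of myo-3, unc-27, act-5 and elt-2 held, and the intestinal genes ifb-2 and vha-6 were called lower in GR1395. The median log2 fold change of the 4 body wall muscle genes was then 0.06 in HW3826 and 0.01 in GR1395, against 0.18 and 0.16 on the deposited counts. That of the 3 pharyngeal muscle genes was then -0.04 in HW3826 and 0.07 in GR1395, against 0.09 and 0.26 on the deposited counts. Epidermis sums were 138 and 150 CPM in HW3826, 146 and 154 CPM in GR1395, and 144 and 121 CPM in N2, and germline sums were 102 and 96.6 CPM in HW3826, 88.3 and 90.3 CPM in GR1395, and 87.1 and 92.7 CPM in N2. No marker gene was at 0 in all libraries. The part of tissue composition in the values of the 10 genes was not tested.

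Exons of other genes overlapped those of 4 of the 10. On the opposite strand cla-1 shares 73 bases of exon with F45E4.5, syd-2 27 bases with F59F5.5, unc-64 64 bases with set-25 and rab-3 25 bases with damt-1. Non-coding genes that were not in the count table also overlap, F45E4.18 with 149 bases and a piRNA gene with 21 bases of cla-1, and C18A3.16 with 85 bases and C18A3.18 with 80 bases of rab-3. The piRNA gene and C18A3.18 lie on the same strand, where strand does not separate the reads. The library kit keeps strand, but whether the counting used it is not stated. Levels of the partner genes were at 3.19 to 8.90 CPM for F45E4.5, 2.82 to 3.81 CPM for F59F5.5, 10.5 to 13.1 CPM for set-25 and 2.62 to 3.38 CPM for damt-1, all far below the gene each overlaps.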

How the data were processed

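Polyadenylated RNA of whole L1 larvae was sequenced in 6 libraries. The authors deposited raw counts per gene with a gene length, and log2 values that equal log2 of the count scaled to the mean library total plus 8. Per the submitters' processing notes, ce11 and HISAT2 1.10.0 were used; which tool counted, and whether by strand, is not given in the sources used here. Names and positions came from Ensembl 115 (WBcel235), matched for 20105 genes.

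Counts were fitted with edgeR 4.0.16 (R 4.3.3), with TMM scaling, its expression filter, robust quasi-likelihood estimates and 1 coefficient per strain. P-values were adjusted by Benjamini and Hochberg over 15024 genes, at 0.05. The fit had 3 residual degrees of freedom. Length trends were local regressions of each library's deviations on log2 length (span 0.3), entered as offsets. Alternatives were other scalings and filters, DESeq2 1.42.0, limma 3.58.1 on the log2 values, a replicate block and fits without 1 library. The procedure was tested on simulated counts with the same mean per gene in all libraries, apart from genes changed in HW3826. These counts held no length trend and no library that stood apart as N2 replicate 2 did. That test therefore says nothing about calls that turn on the trend.

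Named were all 10 genes, listed genes past the threshold against N2, the pair highest per length in each list, and the 5 most alike profiles. Members and lists were chosen with earlier results of these data known. Class-median removal and trend removal without an N2 library were added after seeing the data. Genes named for the HW3826 against GR1395 comparison alone were chosen after their values were seen. No sequences were used here.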

Additional observations from a re-analysis of the deposited data

Results flagged for a closer look

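In 14 genes of the lists, the values of the array strains against N2 differed from each other by the direct edgeR test of HW3826 against GR1395, given here as log2 fold changes. These lists held the 10 presynaptic genes and 96 others, a few of which had too few counts to be tested. Such calls were common over all genes tested, with 14.5% called in this comparison, 7.33% higher and 7.17% lower. Of the 10 presynaptic genes only snb-1 was among the 14 (-0.26, adjusted p = 0.0349). Of the wider presynaptic lists, svop-1 (-0.71, adjusted p = 0.000209), unc-47 (-0.49, adjusted p = 0.0177), rbg-2 (-0.36, adjusted p = 0.0179), unc-14 (-0.29, adjusted p = 0.022) and ehs-1 (-0.24, adjusted p = 0.0478) were lower in HW3826. Of the SNARE genes of other membranes, snb-2 (-0.45, adjusted p = 0.0316) and snap-29 (-0.40, adjusted p = 0.00278) were lower in HW3826 and syx-4 (0.96, adjusted p = 0.0278) was higher, the last at 2.45 and 1.57 CPM in HW3826 against 1.15 and 0.994 CPM in GR1395. Of the tissue markers, act-5 (0.50), ifb-2 (0.44) and unc-27 (0.27) and the germline genes pgl-1 (0.32) and deps-1 (0.32) were higher in HW3826. All 14 stayed called with the length trend removed. In every fit that left out 1 library, svop-1 (highest adjusted p 0.00392), snap-29 (highest adjusted p 0.0374), act-5 (0.0327) and ifb-2 (0.0318) were called, whereas the other 10 lost the call in at least 1 such fit.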

How the results depend on the processing

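Of 570 values of the 10 genes under 19 alternatives, 488 kept direction and side of the threshold, 48 lost the call, 5 gained it and 29 turned sign, none of the last a called value. The number of the 10 called in HW3826 against N2 was 2, and was 0 with the length trend removed (alone, with the replicate block, without N2 replicate 2 or without N2 replicate 1) and 1 with class medians removed; without 1 library it was 1 to 3. In GR1395 against N2 it was 4, and was 0 with the trend removed (alone, with the block, without N2 replicate 2), 2 with class medians removed and 2 with the trend removed without N2 replicate 1 (unc-13 higher, elks-1 lower at -0.24, adjusted p = 0.0465); without 1 library it was 0 to 5. In HW3826 against GR1395 it was 1, 0 with the block, and 0 to 1 without 1 library.

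Over all genes, calls in HW3826 against N2 were 902, against 594 with the replicate block, 574 with the trend removed without N2 replicate 1, and 378 to 1191 without 1 library. In GR1395 against N2 they were 2416, against 1001 with the trend removed without N2 replicate 2, and 656 to 3428 without 1 library. In HW3826 against GR1395 they were 2179, and 745 to 2940 without 1 library. In GR1395 against N2, 1192 of 2416 calls were higher, against 1446 of 2373 with limma on the deposited log2 values. Deviations of same-numbered libraries had correlations of -0.158, 0.0254 and 0.00187 over 15024 genes. The labels do not say whether libraries of equal number shared a culture or preparation, and this was not tested. The block is by replicate number only.

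Sign changes were as follows. cla-1 in HW3826 against GR1395 was -0.034 with the trend removed, with or without the block, -0.037 and -0.036 without N2 replicate 2 or 1 besides, and -0.0073 to 0.11 in fits without 1 library, the lowest without HW3826 replicate 2. unc-10 there was -0.0069 with upper-quartile scaling, -0.033 with limma, -0.0022 with a filter of 5 CPM and -0.044 to 0.069 without 1 library (lowest without GR1395 replicate 2), and sad-1 was -0.024 to 0.0034 (highest without HW3826 replicate 1). syd-2 in GR1395 against N2 was -0.00039 with the trend removed, -0.00026 with the block too, -0.012 with class medians removed and -0.011 with the trend removed without N2 replicate 1. In HW3826 against N2 with the same 4 settings, elks-1 was -0.036, -0.033, -0.012 and -0.115, and unc-64 was 0.0097, 0.0096, 0.016 and 0.00084, with 0.019 with the trend removed without N2 replicate 2. unc-18 was -0.0069 to 0.13 without 1 library (lowest without N2 replicate 2) and -0.026 without N2 replicate 2 and with the trend removed. rab-3 was -0.0026 with upper-quartile scaling, -0.056 to 0.071 without 1 library (below 0 without HW3826 replicate 2, at -0.053, or N2 replicate 1), and -0.034 without N2 replicate 1 and with the trend removed. The cause of these changes was not tested. With 2 libraries per strain, small differences can be missed at this spread, and a gene not called is not shown to be unchanged.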
